A study of Mus musculus with 12 samples.

Results

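The RNA described here is the supernatant of a ribosome pull-down from mouse hypothalamus, compared between Stat3KO and Ctrl mice. The members are the 6 libraries titled as Stat3KO or Ctrl supernatant, out of 12 libraries in all, and the other 6 are the bead-bound fractions of the same pools. Both genotypes were homozygous for LepRb-Cre and for a GFP:L10a tag in the R26 locus, and the Stat3KO mice were in addition homozygous for a floxed Stat3. Ctrl mice carried the same pair of alleles, LepRb-Cre/Cre and R26-GFP:L10a/GFP:L10a, with no floxed allele named. All mice were adult, were collected halfway through the light phase, and received no treatment that the labels name. A cube of tissue, 3 mm on a side, was cut just behind the optic chiasm, and tissue from 5 to 8 mice was pooled for each library, with 3 pools a genotype.

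Leptin, the hormone that fat tissue releases in proportion to its stores, acts in the brain through the long receptor form LepRb. LepRb activates the kinase JAK2 and the transcription factor STAT3, and in the arcuate nucleus this raises Pomc, the precursor of appetite-lowering peptides, and restrains Agrp and Npy, which drive feeding. Cre made in LepRb cells recombines the floxed Stat3 and switches on the tagged ribosomal protein in those cells alone, so beads against the tag take up ribosomes of LepRb cells. The supernatant holds the RNA of all other cells of the block, that is glia, vessels and neurons without LepRb, along with RNA of LepRb cells that the beads left behind. In such a bulk sample, fewer cells of a type and less RNA per cell cannot be told apart.

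The targeted gene was read first. Stat3 was at 57.4, 76.9 and 83.2 CPM (read counts scaled to a common library size by TMM) in Stat3KO replicates 1, 2 and 3 and at 58.5, 68.6 and 62.6 CPM in Ctrl. The groups overlapped, with a log2 fold change of 0.20 (SE 0.138, adjusted p = 0.878). On the beads the log2 fold change of Stat3 was -0.24 and did not pass (adjusted p = 0.999). A count over the whole gene cannot tell a deleted exon from an intact one, and most cells of the supernatant carry no Cre, so the supernatant level does not check the genotype label. The fraction label was checked with genes of the tagged cells: in Ctrl, the log2 ratio of beads to supernatant was 3.60 for Gfp_L10a, 2.64 for Cre, 2.37 for Lepr and 5.96 for Agrp, while that of Fa2h, a gene of myelinating cells, was -1.75. Supernatant libraries held 20743217 to 41829907 counts. Replicate 1 stood apart from replicates 2 and 3 in both genotypes: the chi-square statistic per gene was 35.1 and 36.9 for the Stat3KO pairs with replicate 1 and 11.1 for the pair without it, and 22.8, 26.5 and 5.55 in Ctrl.

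Across the supernatant, 2 genes fell and 0 rose in Stat3KO at an adjusted p under 0.05 (edgeR's quasi-likelihood test). With 18547 genes tested these were 0.0108% and 0%. At an unadjusted p under 0.05, 388 genes (2.09%) were higher and 761 (4.1%) lower, and all 3 Stat3KO libraries lay above all 3 Ctrl libraries in 5.97% of genes and below them in 6.67%. The median log2 fold change over all genes was -0.0029, and the median SE was 0.155. DESeq2 on the same libraries passed 14 higher and 29 lower genes, among them both genes of the main test. The 14 were Sgk1, Agrp, Cdkn1a, Avp, Plin4, Fkbp5, Itgad, Ccl17, Net1, Cry1, Npy, Igtp, Per1 and H2-Bl. Without Stat3KO replicate 1, edgeR passed 6 higher and 37 lower genes.

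Both genes that fell lie on top of each other in the keratin cluster of chromosome 11. A830036E02Rik (ENSMUSG00000084890), annotated as an antisense noncoding RNA, was at 0.717, 0.431 and 0.371 CPM in Stat3KO and at 24.4, 17.2 and 15.1 CPM in Ctrl, from 9 to 27 counts a library against 528 to 649. No Stat3KO library came near any Ctrl library. The mean was 0.506 ± 0.185 CPM (SD, n = 3) against 18.9 ± 4.89 CPM (SD, n = 3), a log2 fold change of -5.17 (SE 0.271, adjusted p = 6.17e-06). Krt12 (ENSMUSG00000020912), which encodes a type I keratin known from the corneal epithelium, was at 0.425, 0.239 and 0.33 CPM in Stat3KO and at 3.65, 2.57 and 2.59 CPM in Ctrl. Its log2 fold change was -3.13 (SE 0.313, adjusted p = 0.00399).

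In GRCm38, Krt12 lies at chr11:99415666-99422259 on the minus strand and A830036E02Rik at chr11:99416956-99425497 on the plus strand. They share 1007 exonic bases, 54.4% of the exonic bases of Krt12, and strand-specific counting is not stated, so reads of Krt12 and of its antisense partner cannot be told apart. Krt20 (ENSMUSG00000035775) encodes a type I keratin of the gut lining and lies at chr11:99428403-99438150 on the minus strand. Krt20 overlaps neither gene and is separated from A830036E02Rik by a gap of 2905 bases. It was at 0.319, 0.383 and 0.206 CPM in Stat3KO and at 1.34, 1.56 and 1.21 CPM in Ctrl, with no overlap between the groups. Its log2 fold change of -2.12 (SE 0.341) missed the threshold (adjusted p = 0.0895), and it passed with DESeq2 (adjusted p = 0.00177). The other tested genes within 150 kb were Krt10 at a log2 fold change of 0.05, Krt25 at -0.50, Krt26 at 0.76 and Gm11940 at 1.52, with adjusted p of 0.77 or more.

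The windows of 250 bases before the RefSeq starts (GRCm38.p6) of A830036E02Rik, Krt12 and Krt20 are shown because these neighbouring genes had the largest negative fold changes of the locus. The window of A830036E02Rik lies at chr11:99416993-99417242 on the plus strand, inside Krt12. That of Krt12 is chr11:99422260-99422509 on the minus strand, inside A830036E02Rik, and that of Krt20 is chr11:99438154-99438403 on the minus strand. No letters are in capitals, because the STAT site TTCNNNGAA, searched on both strands, has no match in these windows, while 7.02% of 32851 RefSeq windows of that length hold one.
A830036E02Rik: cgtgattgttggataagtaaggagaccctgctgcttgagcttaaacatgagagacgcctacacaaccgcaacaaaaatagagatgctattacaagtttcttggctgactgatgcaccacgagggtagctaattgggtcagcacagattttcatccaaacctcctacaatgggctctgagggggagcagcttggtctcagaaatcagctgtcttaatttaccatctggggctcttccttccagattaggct
Krt12: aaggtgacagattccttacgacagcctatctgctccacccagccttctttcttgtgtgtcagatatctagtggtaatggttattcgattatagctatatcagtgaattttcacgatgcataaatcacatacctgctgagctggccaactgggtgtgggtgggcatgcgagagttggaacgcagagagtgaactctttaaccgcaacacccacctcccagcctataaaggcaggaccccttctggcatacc
Krt20: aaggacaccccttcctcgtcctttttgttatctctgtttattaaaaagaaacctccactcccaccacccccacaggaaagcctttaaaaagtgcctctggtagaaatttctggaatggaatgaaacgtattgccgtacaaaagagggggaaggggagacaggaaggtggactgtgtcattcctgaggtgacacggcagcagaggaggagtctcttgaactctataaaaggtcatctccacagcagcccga

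The bead-bound RNA of the same pools showed both genes lower as well. A830036E02Rik was at 0.271, 0.228 and 0.297 CPM against 6.23, 2.1 and 2.38 CPM (log2 fold change -3.72, adjusted p = 0.00591). Krt12 was at 0.211, 0.354 and 0.108 CPM against 2.12, 1.54 and 1.48 CPM (-2.90, adjusted p = 0.0204). In all, 5 genes (0.0288%) fell and 73 (0.421%) rose on the beads. The genotype effect on the beads minus that in the supernatant was 1.46 for A830036E02Rik and 0.23 for Krt12, both at an adjusted p of 1 by the test of the difference.

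**Figure D1:**
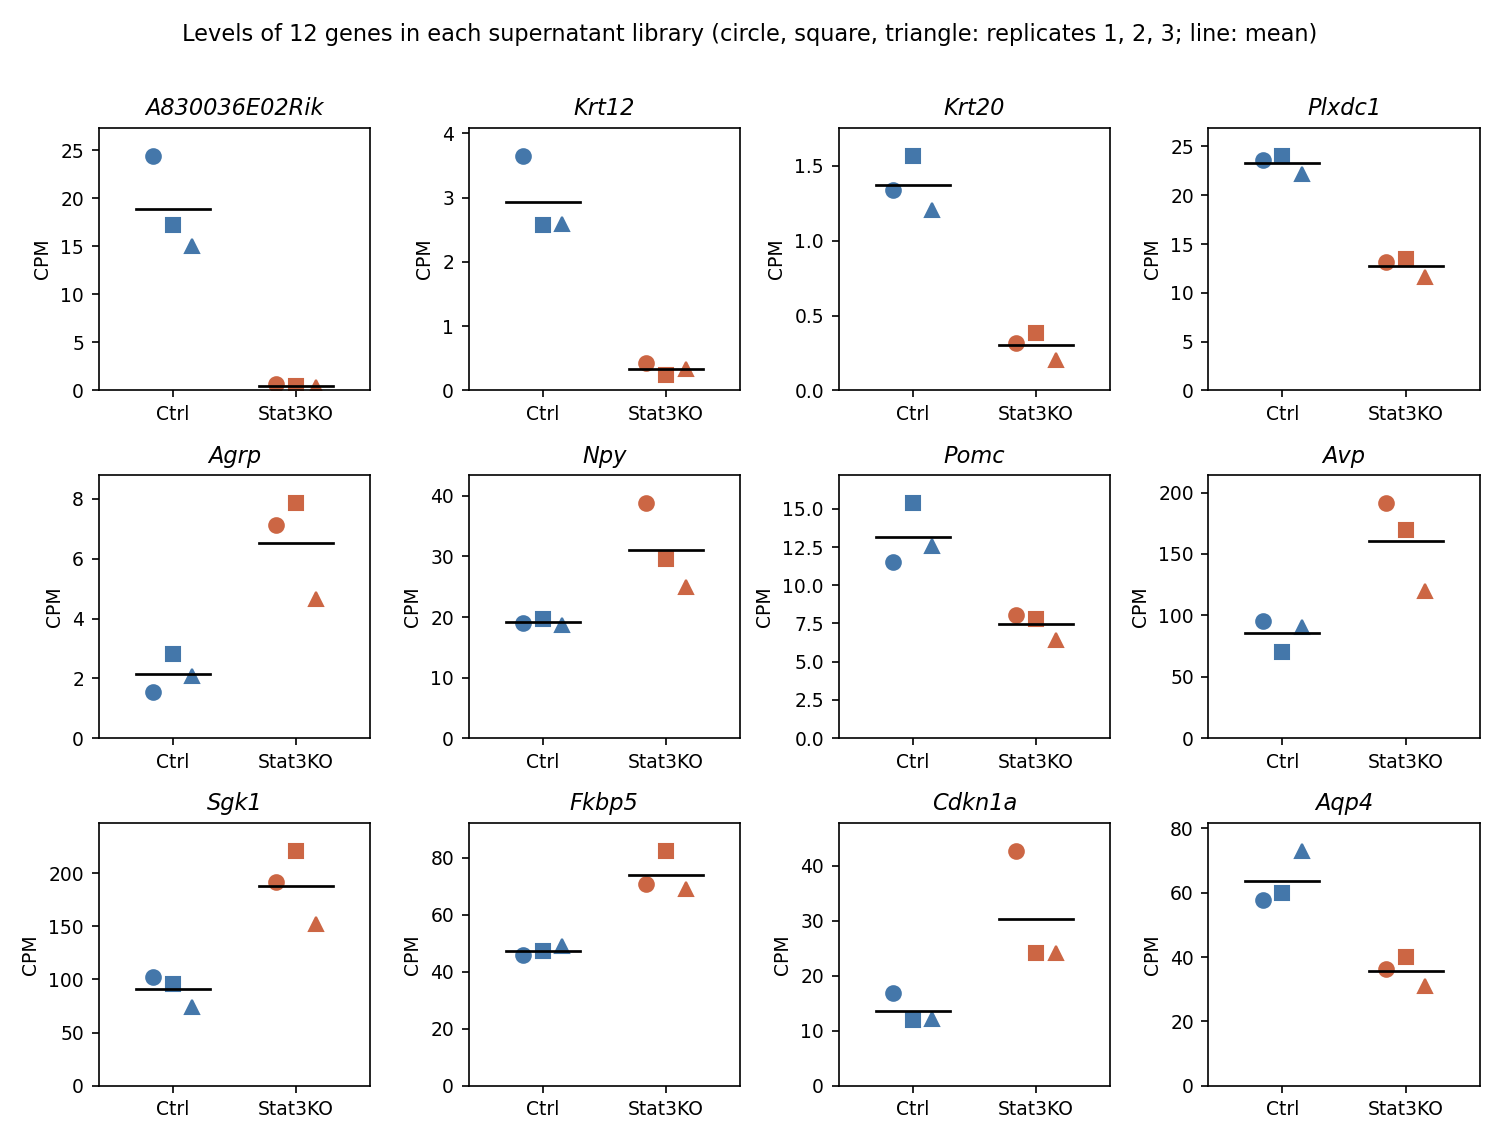
Level of 12 genes in CPM (vertical axes, each from 0) in the 3 Ctrl and 3 Stat3KO supernatant libraries, with circles, squares and triangles for replicates 1, 2 and 3 and a line at the mean. The groups do not overlap in any of the 12 panels, which was a condition for the genes named by small p. Of all genes tested, 5.97% had all 3 Stat3KO libraries above all 3 Ctrl libraries and 6.67% below. A830036E02Rik and Krt12 are the 2 that passed an adjusted p under 0.05.

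Stat3 is on the same chromosome as this cluster, at chr11:100885098-100939540 on the minus strand. The starts of A830036E02Rik and Krt12 lie 1.52 Mb before the Stat3 start on the coordinate axis, with Krt20 beside them. A floxed allele is bred with its flanking chromosome, and the labels give no strain or generation of backcrossing, so floxed Stat3 and alleles linked to it cannot be told apart in this comparison. Of 142 tested genes starting within 2.5 Mb of Stat3, 16 (11.3%) had an unadjusted p under 0.05, against 6.2% of all genes tested. The share was 8.24% of 85 genes from 2.5 to 5 Mb, 10% of 100 genes from 5 to 10 Mb, 5.32% of 1090 genes on the rest of chromosome 11 and 6.17% of 17089 genes on other chromosomes. The median size of the log2 fold change was 0.156 within 2.5 Mb and 0.127 on other chromosomes. These shares are descriptions, because neighbouring genes are not independent. The distance classes were also set with A830036E02Rik and Krt12 already known, and both genes and Krt20 are among the 16.

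Among genes near Stat3, Plxdc1 had the smallest p outside the keratin cluster. It encodes a plexin domain protein known from vessel endothelium and starts 2.95 Mb before Stat3. It was at 13.2, 13.5 and 11.7 CPM in Stat3KO and at 23.6, 24 and 22.2 CPM in Ctrl, and the gap between the groups was many times the spread within them. Its log2 fold change was -0.86 (SE 0.118, adjusted p = 0.0643), and on the beads -0.61 (adjusted p = 0.521). DESeq2 passed it (adjusted p = 2.13e-06), as did edgeR without Stat3KO replicate 1 (adjusted p = 0.0257). Rdm1, a DNA repair gene 0.688 Mb past Stat3, was at 2.12, 3.06 and 3.46 CPM against 7.67, 5.3 and 5.52 CPM, with no overlap (-1.10, adjusted p = 0.249). Kcnh4, a potassium channel gene 0.18 Mb before Stat3, was at 3.45, 1.05 and 1.69 CPM against 6.15, 4.46 and 3.62 CPM (-1.18, adjusted p = 0.582). Farther out, and chosen after its values were seen, the nuclear import gene Kpna2 at 6.06 Mb was at 0.478, 0.168 and 0.247 CPM against 0.878, 1.22 and 1.23 CPM (-1.90, adjusted p = 0.329). Higher values were found on the same stretch: the T cell adaptor gene Skap1, 4.47 Mb before Stat3, was at 3.48, 3.23 and 3.22 CPM against 1.89, 1.99 and 1.36 CPM (0.93, adjusted p = 0.479), and Tubg1, the gamma tubulin gene 0.18 Mb past Stat3, was at 53.7, 61.2 and 64.9 CPM against 45.8, 48.9 and 44.1 CPM (0.37, adjusted p = 0.57).

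**Figure D2:**
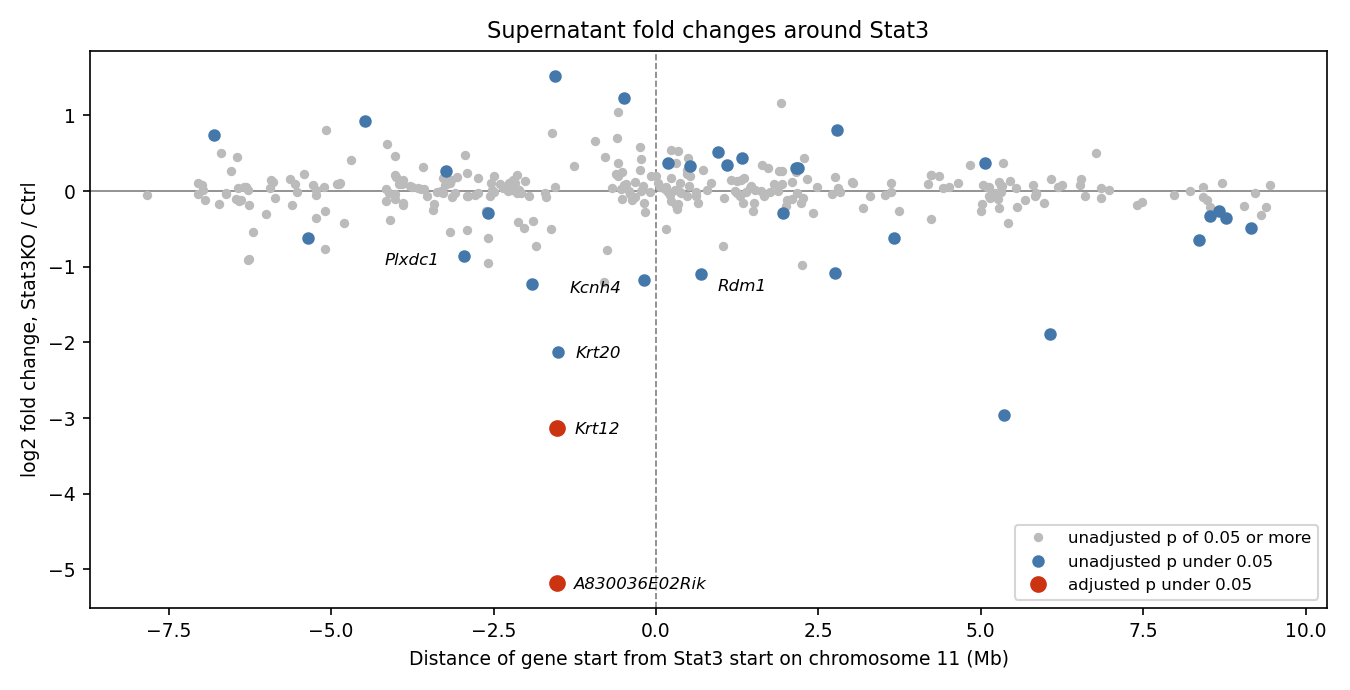
Log2 fold change of Stat3KO over Ctrl supernatant (vertical) against the distance of the gene start from the Stat3 start on chromosome 11 in Mb (horizontal), 1 point a tested gene within 10 Mb, with the color giving the p class. The 2 genes with an adjusted p under 0.05 lie 1.52 Mb before Stat3, and points of both signs with an unadjusted p under 0.05 lie on both sides of it.

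The arcuate feeding genes had the same sign in the supernatant as on the beads, and none passed the main test there. Agrp, which encodes an antagonist of the melanocortin receptors, was at 7.11, 7.85 and 4.66 CPM in Stat3KO and at 1.52, 2.81 and 2.08 CPM in Ctrl. Every Stat3KO library was above every Ctrl library. The log2 fold change was 1.59 (SE 0.254, adjusted p = 0.0895), and the gene passed with DESeq2 (adjusted p = 2.63e-06) and without Stat3KO replicate 3 (adjusted p = 0.0354). On the beads it rose, with 693, 361 and 276 CPM against 124, 134 and 114 CPM (1.84, adjusted p = 0.0198). The difference between the bead and the supernatant effect of Agrp was 0.24 (adjusted p = 1).

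Npy, the gene of the orexigenic neuropeptide Y, was at 38.8, 29.6 and 24.9 CPM in Stat3KO and at 19.1, 19.7 and 18.7 CPM in Ctrl. The Ctrl libraries lay close together (SD 0.481 CPM) and below all Stat3KO libraries. Its log2 fold change in the supernatant was 0.70 (SE 0.151, adjusted p = 0.329), against 1.66 (adjusted p = 0.016) on the beads. The difference of 0.95 did not pass (adjusted p = 1), and with the pool as a block it was 0.90 and passed (adjusted p = 0.0105).

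Pomc was at 8.07, 7.8 and 6.43 CPM in Stat3KO and at 11.5, 15.4 and 12.6 CPM in Ctrl, with the groups apart. Its log2 fold change was -0.82 (SE 0.157, adjusted p = 0.197) in the supernatant and -2.03 (adjusted p = 0.000166) on the beads, where the libraries held 136, 134 and 95.8 CPM against 497, 554 and 446 CPM. The effect on the beads was larger by the test of the difference (-1.22, adjusted p = 0.0352), a call that was lost in 8 of the 12 fits that each left out 1 library. Cartpt, the gene of the CART peptides, was at 57.2, 39.4 and 29.6 CPM against 49.1, 40.2 and 44.2 CPM in the supernatant. The groups overlapped (-0.08, SE 0.193, 95% interval from -0.50 to 0.35), whereas on the beads Cartpt fell (-1.56, adjusted p = 0.0056). The difference for Cartpt was -1.49 (adjusted p = 0.117), and it passed with the pool as a block (-1.47, adjusted p = 1.66e-05). How much of the supernatant level of these genes is RNA that the beads left behind was not tested.

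Vasopressin, by contrast, comes mainly from the large neurons of the paraventricular and supraoptic nuclei. Its gene Avp was at 191, 169 and 120 CPM in Stat3KO and at 95.2, 70.4 and 90.3 CPM in Ctrl. All Stat3KO libraries were higher, with a log2 fold change of 0.91 (SE 0.168, adjusted p = 0.176) that passed with DESeq2 (adjusted p = 0.00016) and without Stat3KO replicate 3 (adjusted p = 0.0354). In Ctrl, Avp was lower on the beads than in the supernatant (log2 ratio -0.68). Oxt, the oxytocin gene of the neighbouring cells, was at 82.1, 63.4 and 48.2 CPM against 72.3, 47.8 and 58.3 CPM and overlapped between the groups (0.12, 95% interval from -0.29 to 0.53). The difference between Avp and Oxt was not tested.

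Over the whole list of neuropeptide genes, 41 of 44 were tested. At an unadjusted p under 0.05, 3 were higher, namely Agrp, Avp and Npy, and 1 was lower, namely Pomc. Of all genes, 2.09% were higher and 4.1% lower at that cut. The median log2 fold change was -0.035. When Stat3KO replicate 1 was left out, 4 of the list were higher and 10 lower, and its median was -0.281. In that fit 597 of all 18992 genes tested were higher and 1233 lower. With all libraries the other 37 neuropeptide genes ranged from -0.50 to 0.46. Crh, the corticotropin-releasing hormone gene, was at 5.87, 3.83 and 4.08 CPM against 4.44, 5.62 and 5.4 CPM (-0.17). Trh, the thyrotropin-releasing hormone gene, was at 46.2, 40.3 and 34.1 CPM against 32.7, 38.3 and 37.4 CPM (0.15), and Sst, the somatostatin gene, at 158, 95.7 and 81.7 CPM against 124, 110 and 116 CPM (-0.06). In each of these the groups overlapped.

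Genes that glucocorticoids induce were higher in Stat3KO supernatant as a list. The adrenal hormones bind the receptor encoded by Nr3c1, which enters the nucleus and binds palindromic response elements. Of 20 listed genes 19 were tested, 0 passed the main test, and 11 of the 19 were higher and 0 lower at an unadjusted p under 0.05, a cut that 2.09% of all genes passed as higher. The median log2 fold change of the list was 0.45. All 19 fold changes were above 0, as were 9148 of all 18547 genes tested. In 10 of the 19 genes all 3 Stat3KO libraries were above all 3 Ctrl libraries, against 5.97% of all genes. The list mean was 5.13, 5.23 and 5.00 log2 CPM in Stat3KO and 4.82, 4.59 and 4.48 log2 CPM in Ctrl, with Ctrl replicate 1 the highest of its group. DESeq2 passed 5 of the list as higher, and 14 of all 18547 genes.

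Sgk1 (ENSMUSG00000019970), a kinase that regulates ion channels and transporters, had the smallest p of the list. It was at 192, 221 and 152 CPM in Stat3KO and at 103, 95.3 and 74 CPM in Ctrl, with no overlap. The log2 fold change was 1.06 (SE 0.156, adjusted p = 0.0895). It passed with DESeq2 (adjusted p = 2.56e-07), without Stat3KO replicate 1 (adjusted p = 0.0494) and without Stat3KO replicate 3 (adjusted p = 0.0331). Fkbp5, the co-chaperone that dampens the glucocorticoid receptor, was at 70.6, 82.3 and 69 CPM against 45.7, 47.2 and 49 CPM. Its groups were apart as well (0.65, SE 0.107, adjusted p = 0.105), and it passed with DESeq2 (adjusted p = 0.000207) and without Stat3KO replicate 1 (adjusted p = 0.0402).

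Cdkn1a, the cell cycle inhibitor p21, was at 42.7, 24.1 and 24.1 CPM against 16.9, 12 and 12.2 CPM, and replicate 1 was the highest of each group (1.16, SE 0.222, adjusted p = 0.197). Plin4, a coat protein gene of lipid droplets, was at 9.27, 18.9 and 11.4 CPM against 5.68, 6.21 and 3.69 CPM (1.36, SE 0.267, adjusted p = 0.211). Hif3a, a hypoxia factor subunit gene, was at 11.7, 16.3 and 9.48 CPM against 8.04, 7.61 and 7.08 CPM (0.73, adjusted p = 0.483). Not every known target followed: Tsc22d3, the leucine zipper gene GILZ, was at 165, 185 and 166 CPM against 183, 153 and 149 CPM, with overlap (0.09, 95% interval from -0.16 to 0.33). The receptor gene Nr3c1 itself was at 128, 156 and 159 CPM against 134, 175 and 175 CPM (-0.13). On the beads the list's median was 0.40, and Sgk1 was at 0.78, Fkbp5 at 0.52, Cdkn1a at 1.21 and Plin4 at 1.33, each at an adjusted p of 0.138 or more.

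The promoter windows of 3 of the 19 genes of this list with RefSeq starts held the response element, searched on both strands as the half-site GNACA, 3 bases of any kind and the inverted half-site TGTNC, against 0.44% of 27025 genes in all. They are shown with the match in capitals so that the motif can be read beside the values. Sgk1 has the match in 1 of 6 annotated windows, at chr10:21993640-21993889 on the plus strand, where it begins 188 bases before the start. Map3k6, a stress kinase gene, has it at chr4:133240568-133240817 on the plus strand, 181 bases before the start. Mt1, a metallothionein gene, has it at chr8:94178839-94179088 on the plus strand, 94 bases before the start.
Sgk1: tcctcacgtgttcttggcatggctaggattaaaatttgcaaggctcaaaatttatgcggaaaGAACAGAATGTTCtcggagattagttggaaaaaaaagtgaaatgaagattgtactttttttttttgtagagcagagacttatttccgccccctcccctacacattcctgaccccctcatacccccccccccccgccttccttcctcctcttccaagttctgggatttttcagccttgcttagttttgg
Map3k6: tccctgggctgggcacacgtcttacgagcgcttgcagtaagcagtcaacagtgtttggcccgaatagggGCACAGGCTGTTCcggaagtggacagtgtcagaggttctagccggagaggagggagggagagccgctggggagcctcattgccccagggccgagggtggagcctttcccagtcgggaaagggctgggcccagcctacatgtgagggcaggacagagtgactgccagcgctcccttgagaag
Mt1: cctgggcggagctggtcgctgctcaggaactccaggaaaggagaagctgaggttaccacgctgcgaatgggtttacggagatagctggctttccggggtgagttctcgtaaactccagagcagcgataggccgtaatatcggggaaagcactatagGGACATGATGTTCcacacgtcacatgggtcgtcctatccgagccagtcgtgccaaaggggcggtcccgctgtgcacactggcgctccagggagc

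Map3k6 was at 2.81, 2.63 and 3.22 CPM in Stat3KO and at 3.23, 2.94 and 2.49 CPM in Ctrl, with a log2 fold change of 0.00. Mt1 was at 269, 186 and 177 CPM against 213, 151 and 147 CPM, so that the groups overlapped (0.31, adjusted p = 0.855). A match is a description of these letters and not a shown binding site.

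Clock genes overlap with the hormone-responsive list at Per1. All 20 listed genes were tested, 0 passed the main test, 5 were higher and 0 lower at an unadjusted p under 0.05, against 2.09% and 4.1% of all genes, and the median log2 fold change was 0.12. Without Ctrl replicate 3 the count of higher genes was 3. The list mean was 6.37, 6.34 and 6.43 log2 CPM in Stat3KO and 6.18, 6.26 and 6.21 log2 CPM in Ctrl. Cry1, a repressor of the clock's transcription loop, was at 42.7, 42.3 and 45.7 CPM against 24.9, 30.8 and 31 CPM (0.59, SE 0.117, adjusted p = 0.212). Per1, another repressor, was at 103, 73.8 and 81.7 CPM against 61.1, 60.3 and 51 CPM (0.59, adjusted p = 0.443). Neither gene overlapped between the groups. Per2 was at 27.6, 35.4 and 35.5 CPM against 27.1, 27.1 and 25.2 CPM (0.31, adjusted p = 0.762), and Cry2 at 190, 173 and 196 CPM against 152, 150 and 142 CPM (0.33, adjusted p = 0.571). The labels give 1 collection time for all mice.

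Immediate early genes, which neurons switch on within minutes of activity, were mixed. Of 34 tested, 8 were higher and 2 lower at an unadjusted p under 0.05, against 2.09% and 4.1% of all genes. The list's median was 0.084. Fos was at 13.7, 18.2 and 19 CPM against 17.1, 9.36 and 10.8 CPM (0.47, adjusted p = 0.8), and Ctrl replicate 1 lay among the Stat3KO libraries. Without Ctrl replicate 1 the list's median was 0.253, with 12 higher and 1 lower, while 694 and 1175 of all 18988 genes tested were higher and lower. Without Ctrl replicate 2 it was -0.020, with 5 higher and 0 lower, and without Stat3KO replicate 3 it was 0.022, with 5 higher and 3 lower. Egr1 went the other way, at 59.7, 49.7 and 64.3 CPM against 78.4, 72.5 and 62.4 CPM (-0.30, adjusted p = 0.783). Dusp1 and Per1 are also on the glucocorticoid list.

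**Figure D3:**
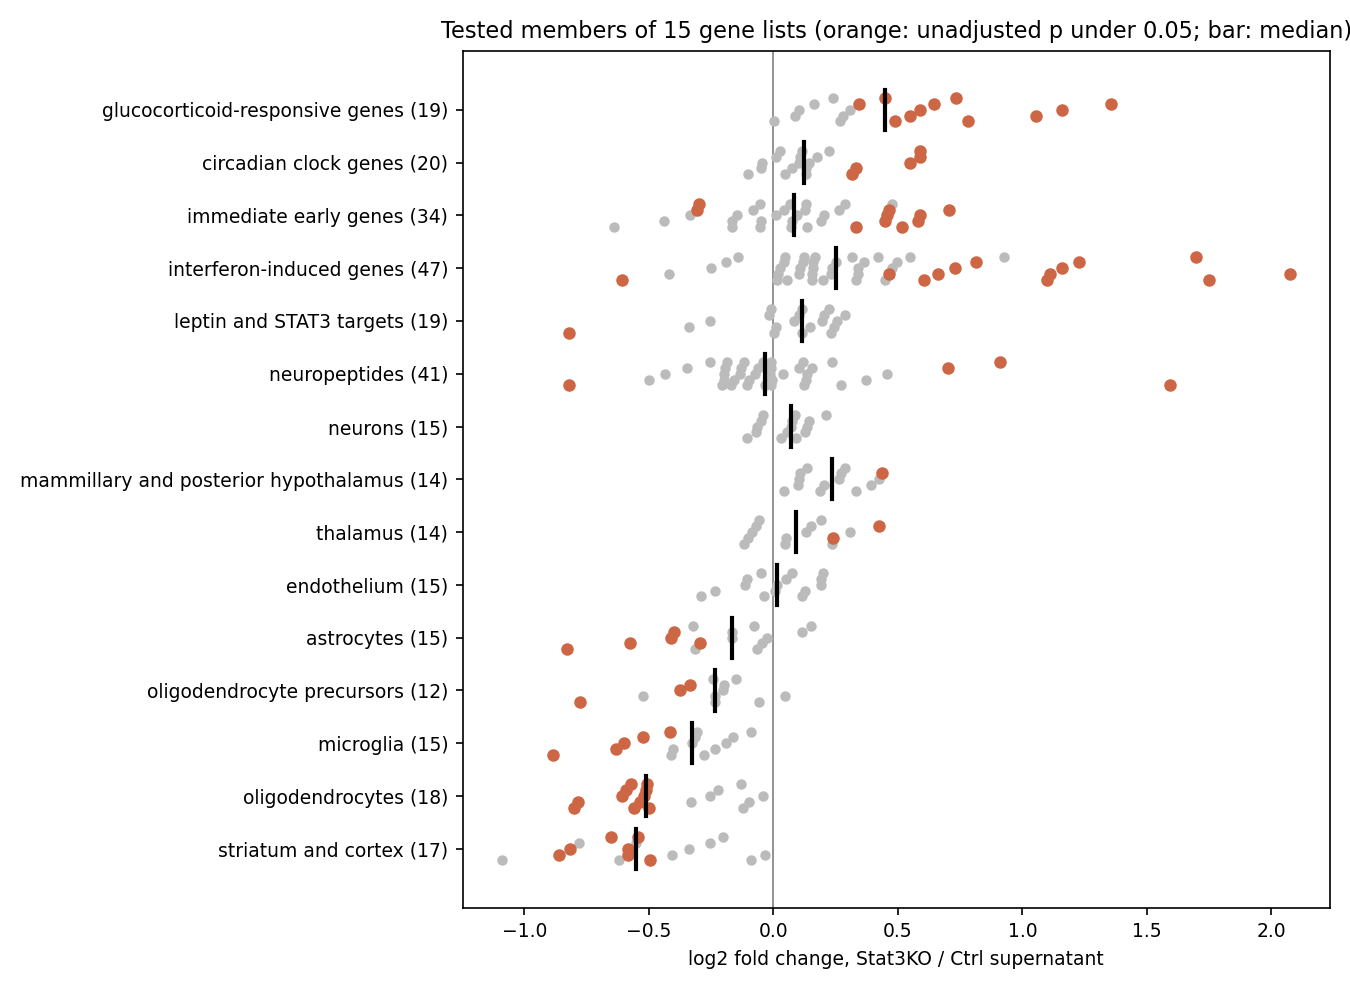
Log2 fold change of Stat3KO over Ctrl supernatant (horizontal) for each tested member of 15 gene lists (rows, number tested in brackets), with members at an unadjusted p under 0.05 in orange and a bar at each median. The glucocorticoid list has its 19 members above 0 and the oligodendrocyte list its 18 members below 0.

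Genes of myelinating glia were lower in Stat3KO supernatant. All 18 oligodendrocyte markers were tested, 0 passed the main test, and 11 were lower and 0 higher at an unadjusted p under 0.05, against 4.1% of all genes as lower. All 18 fold changes were below 0, with a median of -0.51, while 9148 of all 18547 genes tested were above 0. In 7 of the 18 genes all 3 Stat3KO libraries were below all 3 Ctrl libraries, against 6.67% of all genes. The list mean was 6.63, 6.67 and 6.52 log2 CPM in Stat3KO and 6.85, 7.04 and 7.20 log2 CPM in Ctrl. DESeq2 passed 3 of the 18 as lower, and 29 of all 18547 genes.

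Fa2h, which hydroxylates myelin fatty acids, was at 40.1, 43.6 and 41.1 CPM against 56.6, 62.2 and 69.2 CPM (-0.59, SE 0.109, adjusted p = 0.176). Ugt8a, the enzyme that makes the myelin lipid galactosylceramide, was at 39.2, 56.1 and 45.6 CPM against 59, 82.4 and 104 CPM (-0.80, adjusted p = 0.479). Both kept the groups apart. The myelin protein gene Mog was at 88.4, 93.3 and 71.3 CPM against 105, 120 and 138 CPM (-0.52, adjusted p = 0.483).

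Other glia had lower medians too. Their counts below stand beside 4.1% of all genes lower and 2.09% higher at an unadjusted p under 0.05. For oligodendrocyte precursors 3 of 12 markers were lower and 0 higher at an unadjusted p under 0.05 (median -0.24), led by the receptor gene Gpr17 at 16.4, 26.2 and 21.4 CPM against 30.4, 32.1 and 46.8 CPM (-0.77, adjusted p = 0.483). For microglia 5 of 15 were lower and 0 higher (median -0.33), and the fractalkine receptor gene Cx3cr1 was at 15.5, 10.9 and 10.6 CPM against 17.8, 18.6 and 21.1 CPM (-0.63, adjusted p = 0.483). Without Stat3KO replicate 1 the microglial count was 10 of 15 and the median -0.50, while 1233 of all 18992 genes tested were lower. For astrocytes 5 of 15 were lower and 0 higher (median -0.17). Without Stat3KO replicate 3 or Ctrl replicate 3, the lower markers numbered 1 for the precursors, 3 for microglia and 2 for astrocytes. Aqp4, the water channel of astrocyte end-feet, was at 36.2, 40.1 and 30.9 CPM against 57.6, 59.9 and 73 CPM, with the groups well apart (-0.83, SE 0.131, adjusted p = 0.0895), and passed with DESeq2 (adjusted p = 3.88e-05). Gfap, the astrocyte filament gene, was at 111, 109 and 102 CPM against 154, 109 and 133 CPM and overlapped (-0.29, adjusted p = 0.786).

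Markers of vessels and of neurons in general gave no such pattern. The median of 15 endothelial markers was 0.013, that of 11 mural cell markers -0.060 and that of 15 pan-neuronal markers 0.069, with 0 members of any at an unadjusted p under 0.05. Lower medians were not limited to the glial lists above. They were -0.28 for 11 meningeal fibroblast markers, -0.20 for 14 ependymal and tanycyte markers, -0.13 for 11 choroid plexus markers and -0.33 for 6 pituitary markers. The median of 8 blood markers was 0.15. The pan-neuronal list mean was 9.05, 9.17 and 9.19 log2 CPM in Stat3KO and 8.95, 9.16 and 9.16 log2 CPM in Ctrl.

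Genes that mark tissue at the edge of the block differed between libraries of a genotype, and the list means of striatum and cortex overlapped between genotypes. Striatum and cortex markers had a median of -0.55 in 17 tested genes. At an unadjusted p under 0.05, 7 of them were lower and 0 higher, against 4.1% of all genes as lower. Their mean was 5.06, 3.87 and 4.33 log2 CPM in Stat3KO and 4.97, 5.13 and 5.05 log2 CPM in Ctrl, so that Stat3KO replicate 1 was at the Ctrl level and the 2 other Stat3KO libraries below it. Without Stat3KO replicate 1, 15 of 17 were lower at an unadjusted p under 0.05, the median was -0.98 and 7 passed an adjusted p under 0.05, while 1233 of all 18992 genes tested were lower. The lower genes numbered 1 of 17 without Stat3KO replicate 2 (median -0.345), 2 without Ctrl replicate 2 and 3 without Stat3KO replicate 3. Rarb, a retinoic acid receptor gene on this list, was apart in all libraries at 4.7, 3.14 and 4.25 CPM against 6.47, 8.62 and 6.75 CPM (-0.86, adjusted p = 0.416).

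On the other side of the block, markers of the mammillary and posterior hypothalamus were at a median of 0.23. All 14 fold changes were above 0. At an unadjusted p under 0.05, 1 was higher and 0 lower, against 2.09% and 4.1% of all genes. Without Stat3KO replicate 1, 6 of the 14 were higher, while 597 of all 18992 genes tested were higher. The list means overlapped, at 2.44, 2.83 and 2.68 log2 CPM in Stat3KO and 2.61, 2.43 and 2.26 log2 CPM in Ctrl. Thalamus markers had a median of 0.09 in 14 genes, with 2 higher and 0 lower at an unadjusted p under 0.05. Preoptic and anterior hypothalamus markers had a median of -0.076 in 16 genes, with 0 in either direction. Among 40 hypothalamic transcription factors, 4 were higher and 0 lower at an unadjusted p under 0.05, against 2.09% and 4.1% of all genes. Among the 4 was Otp, a factor of neuroendocrine neurons, at 37.1, 45.7 and 44.8 CPM against 34.8, 31.4 and 31 CPM (0.39, adjusted p = 0.57). Without Stat3KO replicate 1 the factors higher and lower numbered 10 and 5, while 597 and 1233 of all 18992 genes tested were higher and lower. Without Stat3KO replicate 3 or Ctrl replicate 3 the factors numbered 1 and 0. Nr5a1, the factor that marks the ventromedial nucleus, was at 4.94, 6.41 and 7.01 CPM against 4.44, 4.46 and 3.84 CPM (0.53, adjusted p = 0.652). The part of dissection in the differences of glial, peptide and hormone-responsive genes was not tested.

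**Figure D4:**
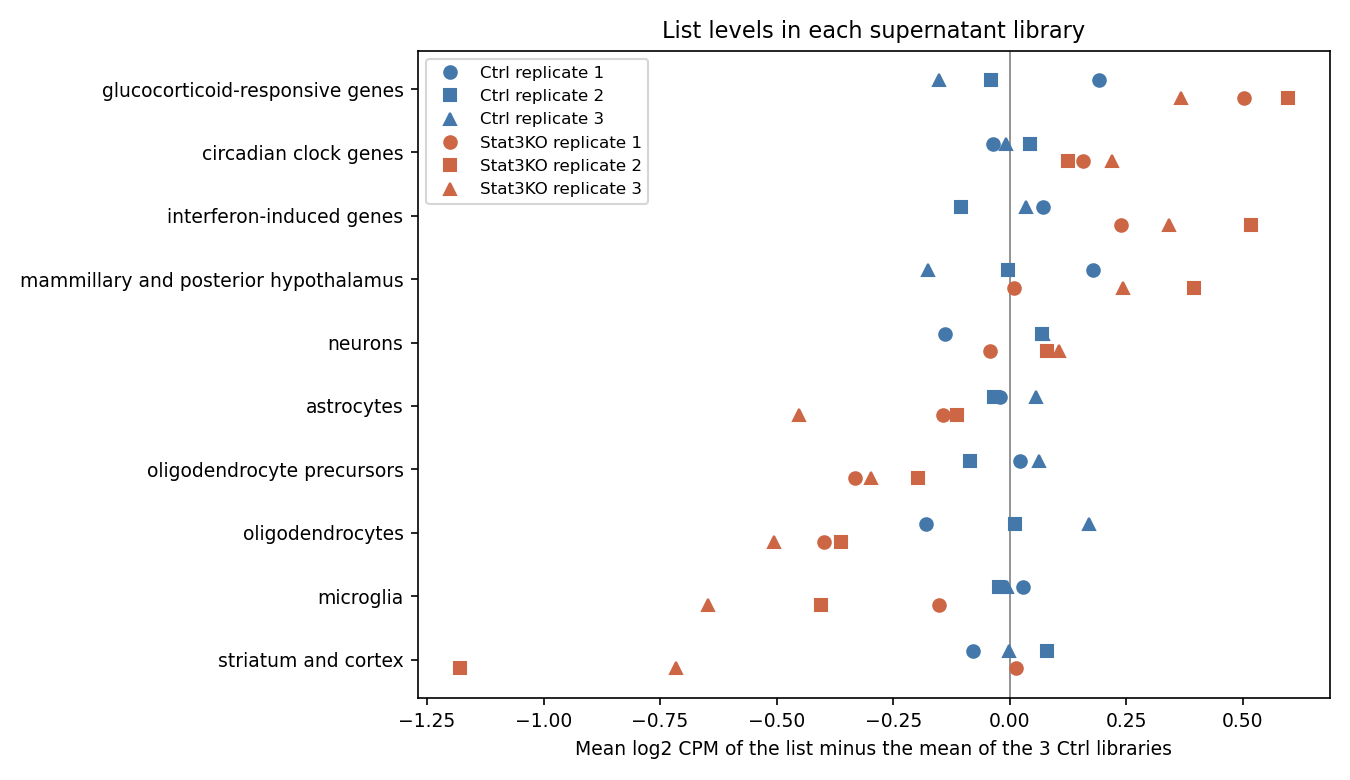
Mean log2 CPM of the tested members of 10 gene lists in each supernatant library, minus the mean of the 3 Ctrl libraries (horizontal), with blue for Ctrl, orange for Stat3KO and the symbol giving the replicate. Stat3KO replicate 1 lies at the Ctrl level for striatum and cortex, and the 3 Stat3KO libraries lie below all Ctrl libraries for oligodendrocytes and above them for glucocorticoid-responsive genes.

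Interferon-induced genes, the antiviral program of the innate immune response, were moderately higher in the supernatant and far higher on the beads. Of 50 listed genes 47 were tested in the supernatant. There 0 passed the main test, and the median log2 fold change was 0.25. At an unadjusted p under 0.05, 12 were higher and 1 lower, against 2.09% and 4.1% of all genes. The count of higher members was 7 without Stat3KO replicate 2 and 16 without Stat3KO replicate 1. In those fits 371 of 18972 and 597 of 18992 genes tested were higher. On the beads 35 of 46 tested members rose at an adjusted p under 0.05, against 0.421% of 17354 genes. The list median there was 2.41. The bead effect exceeded the supernatant effect in 25 of the members tested in the supernatant by the test of the difference, which over 19122 genes passed 37 (0.193%) in that direction and 2 (0.0105%) in the other. The 2 others were Pomc and Meox1. Meox1, a homeobox gene 0.955 Mb past Stat3 and named after its values were seen, was at 0.52 in the supernatant and -1.39 on the beads (difference -1.91, adjusted p = 0.033).

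Oasl2, an antiviral oligoadenylate synthetase-like gene, was at 6.32, 8.09 and 6.18 CPM in Stat3KO supernatant and at 5.13, 3.95 and 3.49 CPM in Ctrl. The groups were apart (0.73, SE 0.193, adjusted p = 0.488), and on the beads the change was 4.48 (adjusted p = 7.98e-07). Igtp, an interferon-inducible GTPase gene, was at 5.36, 4.24 and 3.83 CPM against 1.85, 1.62 and 2.76 CPM in the supernatant (1.10, adjusted p = 0.329), against 3.89 on the beads. Eif2ak2, the kinase PKR, was at 10.7, 14.5 and 13.9 CPM against 7.49, 9.2 and 7.93 CPM (0.66, adjusted p = 0.483), against 1.94 on the beads. Xaf1, an interferon-induced apoptosis gene, had opposite signs: it was at 7.22, 7.42 and 7.96 CPM against 12.8, 12 and 9.69 CPM in the supernatant (-0.61, adjusted p = 0.483) and rose by 2.37 on the beads (adjusted p = 0.00649). H2-Q6, a class I histocompatibility gene with close paralogs whose reads may be shared, was at 0.77, 1.44 and 0.866 CPM against 0.231, 0.239 and 0.452 CPM (1.70, adjusted p = 0.483).

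Genes of the leptin pathway itself showed little in the supernatant. Of 19 tested leptin and STAT3 targets, 0 were higher and 1, Pomc, was lower at an unadjusted p under 0.05, with a median of 0.11. Of all genes, 2.09% were higher and 4.1% lower at that cut. Of the targets, 4 were higher without Stat3KO replicate 1, while 597 of all 18992 genes tested were higher. Socs3, the feedback inhibitor that STAT3 induces, was at 3.16, 2.63 and 2.14 CPM in Stat3KO and at 2.26, 2.31 and 2.26 CPM in Ctrl (0.22, 95% interval from -0.24 to 0.69). The leptin receptor gene Lepr was at 2.44, 2.58 and 2.18 CPM against 1.99, 2.23 and 2.28 CPM, with overlap (0.15, 95% interval from -0.30 to 0.60). Of 36 JAK-STAT signalling genes, 0 were higher and 1 lower at an unadjusted p under 0.05, against the same 2.09% and 4.1% of all genes. The lower gene was Il6st, the shared receptor chain of interleukin 6 cytokines, at 47, 52.4 and 45.9 CPM against 49, 64.4 and 61.8 CPM (-0.27, adjusted p = 0.804).

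**Figure D5:**
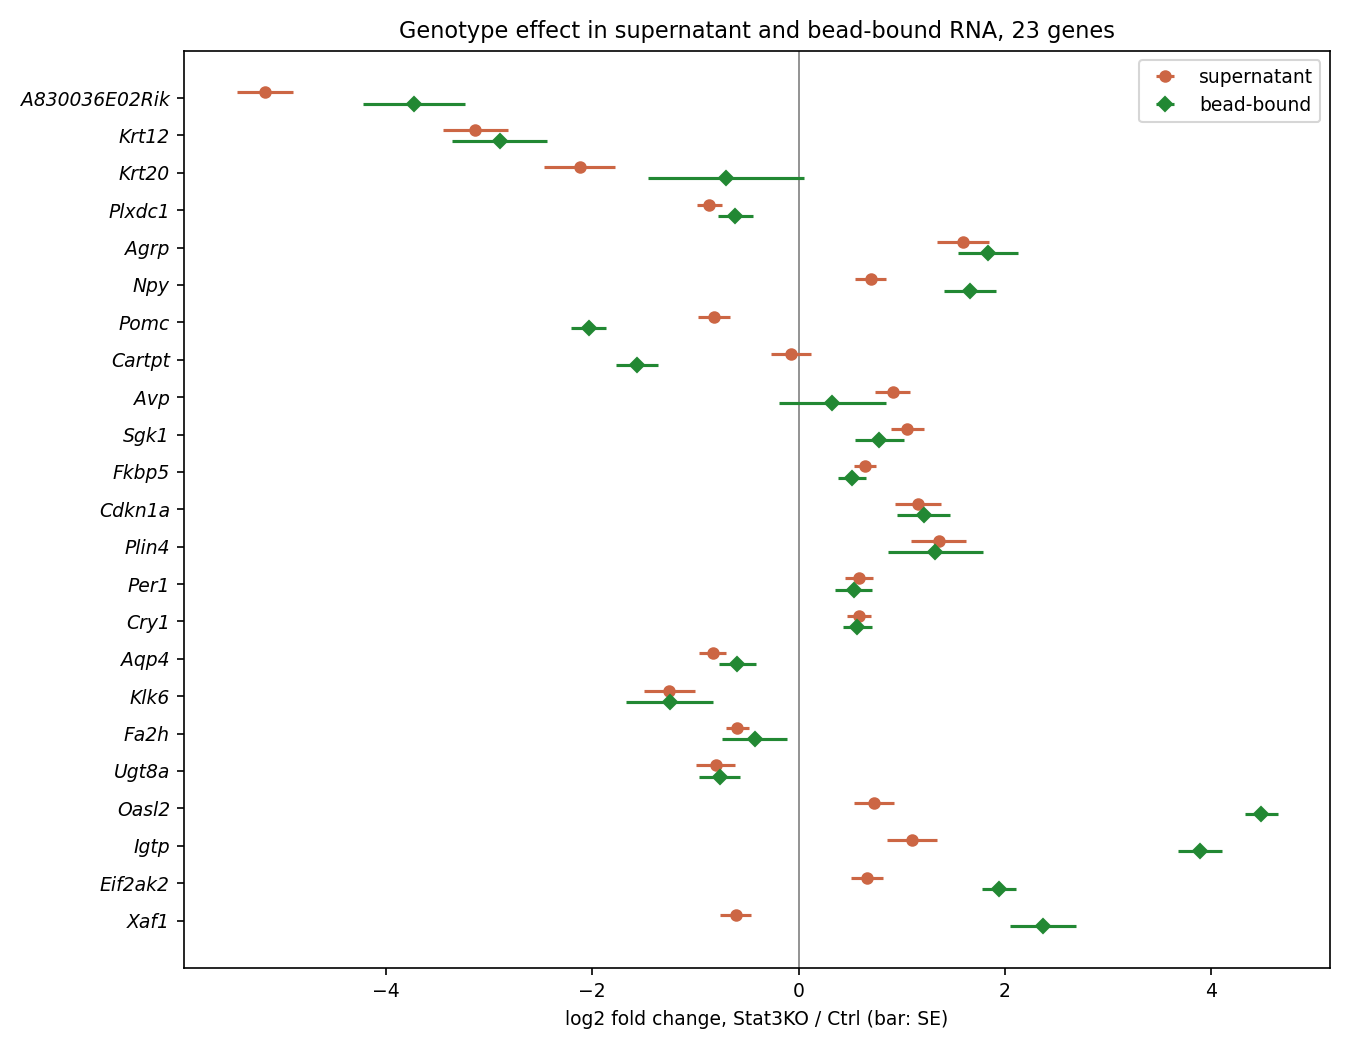
Log2 fold change of Stat3KO over Ctrl (horizontal, bars 1 SE) in supernatant (orange circles) and bead-bound RNA (green diamonds) for 23 genes (rows). Oasl2, Igtp, Eif2ak2 and Xaf1 lie farther to the right on the beads, at 4.48, 3.89, 1.94 and 2.37, and Pomc farther to the left at -2.03.

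Genes with small p values outside these groups had fold changes of both signs. Itgad, an integrin chain gene of leukocytes, was at 2.76, 3.14 and 3.22 CPM in Stat3KO and at 0.97, 1.33 and 0.879 CPM in Ctrl (1.51, SE 0.241, adjusted p = 0.0895). It passed with DESeq2 (adjusted p = 0.00027) and without Stat3KO replicate 1 (adjusted p = 0.0494). Ighm, the heavy chain of immunoglobulin M, was at 8.07, 8.76 and 7.96 CPM against 16.5, 13.2 and 13.8 CPM (-0.80, SE 0.14, adjusted p = 0.128). The chemokine gene Ccl17, below the level set for naming genes and picked after its values were seen, was at 1.96, 1.58 and 1.4 CPM against 0.323, 0.371 and 0.502 CPM (2.01, adjusted p = 0.0895), and at 2.14 (adjusted p = 0.0867) on the beads. All 3 kept the groups apart, which was a condition for naming Itgad and Ighm.

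Cd82, a tetraspanin gene, was at 10.8, 11.5 and 10.8 CPM against 17, 19.2 and 24 CPM (-0.86, SE 0.144, adjusted p = 0.105). Tmem63a, a mechanically gated ion channel gene, was at 22.5, 26.7 and 22.3 CPM against 40.7, 37.9 and 35 CPM (-0.66, SE 0.118, adjusted p = 0.137). Klk6, a secreted protease gene of oligodendrocytes, was at 3.11, 1.65 and 2.56 CPM against 5.36, 7.16 and 4.77 CPM (-1.25, SE 0.25, adjusted p = 0.212). In Ctrl these 3 were lower on the beads than in the supernatant, at log2 ratios of -0.66, -1.62 and -1.06. Serpinb1a, a protease inhibitor gene, was at 10.1, 15 and 15.2 CPM against 21, 23.5 and 26.8 CPM (-0.83, adjusted p = 0.212), and Atp10b, a lipid flippase gene, at 1.83, 2.18 and 2.14 CPM against 3.37, 4.64 and 5.32 CPM (-1.13, adjusted p = 0.197). Net1, an exchange factor gene for RhoA, was higher in all Stat3KO libraries at 19.1, 23.5 and 21.3 CPM against 12.2, 14.6 and 13.2 CPM (0.67, SE 0.13, adjusted p = 0.197).

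At an unadjusted p under 0.05, which 2.09% of all genes passed as higher and 4.1% as lower, the remaining lists held few members. These were 1 higher and 1 lower of 50 hormone and peptide receptors, 1 and 3 of 19 transmitter identity genes, 1 and 2 of 28 genes of the unfolded protein response, 2 and 2 of 19 inflammation genes, 0 and 1 of 13 nuclear noncoding RNAs, 1 and 0 of 8 blood genes, 0 and 2 of 11 meningeal genes, 0 and 1 of 14 ependymal and tanycyte genes and 1 and 0 of 10 ventral midbrain genes. Cholesterol synthesis with 23 tested, cytosolic ribosomal proteins with 50, nuclear oxidative phosphorylation genes with 46, mitochondrially encoded genes with 9, choroid plexus with 11 and sex-linked genes with 9 had 0 in either direction. Several of these counts turned on 1 library. Without Stat3KO replicate 3, all 9 mitochondrially encoded genes were higher (median 0.361, against 0.122 with all libraries). Without Ctrl replicate 1, 16 ribosomal protein genes and 4 oxidative phosphorylation genes were higher, and 7 cholesterol synthesis genes, 7 receptor genes and 9 genes of the unfolded protein response were lower. In that fit 694 of all 18988 genes tested were higher and 1175 lower, against 388 and 761 of 18547 with all libraries. Without Stat3KO replicate 1, the lower genes were 5 of the receptors, 5 of the transmitter identity genes and 6 of the unfolded protein response. In that fit 1233 of all 18992 genes tested were lower. Of 11 pituitary genes 6 were tested and 2 were lower, one of them the growth hormone gene Gh at 0, 0.551 and 0.0824 CPM against 0.37, 4.19 and 0.728 CPM, where Ctrl replicate 2 held most of the signal and the groups overlapped.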

How the data were processed

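Hypothalamic RNA of 12 libraries (6 pools of mice, bead-bound and supernatant) was deposited by the authors as raw whole-number counts per gene. Per the submitters' processing notes, the aligner was STAR 2.5.3a and the build mm10. The counting step, its annotation and its use of strand are not given in the sources at hand. Per the labels, RNA had an integrity number of at least 8 and was read in 50 cycles, single end. Names and coordinates come from GENCODE M21 (GRCm38), which matched 52489 of 52638 entries, and promoters from RefSeq.

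The 6 supernatant libraries were fitted with edgeR 4.0.16: TMM scaling, filterByExpr (minimum count 10, minimum total 15), quasi-likelihood test, 2-sided, Benjamini-Hochberg adjusted p under 0.05. Levels are CPM of the TMM-scaled total. The beads were fitted alike, and a fit of all 12 libraries gave the difference between fractions. DESeq2 1.42.0, limma-voom 3.58.1, other scalings, filters and left-out libraries were the alternatives. Scripts were tested on simulated data. Bead and supernatant libraries of a pool come from the same mice, per the series' design, and their deviations correlated at 0.258 to 0.473. No pair of libraries within a group agreed within sampling noise. Within a fraction each library is a separate pool, so p-values of a fraction measure the spread between pools. The main test of the difference between fractions did not pair the 2 libraries of a pool, and the pool as block was an alternative. Counts without molecular identifiers limit counting error only.

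Genes named are 15 of special interest, the genes that passed and their tested neighbours within 150 kb, the 12 higher and 12 lower genes of smallest p with groups that do not overlap and a log2 mean CPM of at least 1, and up to 4 members per list. For the genes named by small p, groups that do not overlap are a condition of the choice and not a result. Genes added for their values are marked as such. Members and lists were chosen with earlier results of these data known, so no count of a list is independent support. Some genes that this rule names are not reported here.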

Additional observations from a re-analysis of the deposited data

Results flagged for a closer look

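Genes whose genotype effect differed between the bead-bound and the supernatant RNA by the test of the difference are given here, with no explanation weighed. Pomc differed by -1.22 on the log2 scale (bead minus supernatant, adjusted p = 0.0352). Oasl2 differed by 3.74 (adjusted p = 2.04e-06), Igtp by 2.79 (adjusted p = 0.000451), Xaf1 by 2.97 (adjusted p = 0.00187), Eif2ak2 by 1.27 (adjusted p = 0.0274) and H2-Q6 by 3.00 (adjusted p = 0.0319). Leaving out 1 library ended the call of Pomc, Eif2ak2 and H2-Q6 in several cases: the adjusted p of Pomc was then up to 0.141, that of Eif2ak2 up to 0.118 and that of H2-Q6 up to 0.526, the last without Ctrl supernatant replicate 3.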

How the results depend on the processing

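Both genes that fell, A830036E02Rik and Krt12, passed under each of the 15 alternatives run. The number of genes higher and lower in Stat3KO supernatant was 0 and 2, and this held with limma-voom, DESeq2 size factors, library totals, a mean CPM of at least 1 and the fit of all 12 libraries. It was 14 and 29 with DESeq2, 46 and 157 when every gene with a count was tested, and from 0 to 6 higher and from 2 to 37 lower when 1 library was left out. With replicates 2 and 3 alone, chosen after seeing the data, it was 200 and 788. The labels do not say that replicate numbers pair the genotypes. Deviations of same-numbered libraries correlated at 0.156, 0.0506 and 0.034. Replicate 1 of each genotype correlated negatively with replicates 2 and 3 of the other, from -0.11 to -0.0843. Stat3KO replicate 2 correlated best with Ctrl replicate 3, at 0.0787. With the replicate block 2 genes were higher, Sgk1 (adjusted p = 0.00928) and Cdkn1a (adjusted p = 0.0273), and 2 lower. For the difference between fractions, 37 genes were higher and 2 lower on the beads; it was 60 higher with DESeq2, 55 higher and 4 lower with the pool as replicate block, and 24 to 35 higher and 0 to 3 lower without 1 library. The sign turned in small values only. Trh was at -0.018 and Krt10 at -0.14 with replicates 2 and 3 alone. Without 1 library Oxt ranged from -0.086 to 0.29, Cartpt from -0.36 to 0.12, Cre from -0.11 to 0.78, Krt10 from -0.082 to 0.16 and Sst from -0.39 to 0.12, and the fraction difference of Krt12 from -0.26 to 0.55 and of Agrp from -0.24 to 0.48. The cause of these changes was not tested. Genes under 1 CPM rest on few counts, and 3 pools a genotype limit the precision.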
